A study of Mus musculus with 6 samples.

Results

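The genes described here are 38 genes of the G1/S transition and of DNA replication, a module that runs from the cyclin E switch through the loading and firing of origins to the polymerases, nucleotide enzymes and chromatin assembly factors of S phase. They were taken by name from a list that was drawn up with earlier results of these data known. Of the 38, 36 had a probe set annotated to that gene alone, out of 22180 genes with such a probe set, and all 36 passed the filter on dim genes, which used the mean over the 6 arrays. Rfc4 and Ccne2 were represented only by a probe set that the annotation assigns to a neighbouring gene as well, and no value is given for them.

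RNA came from LT-HSC, the long-term stem cells of the blood system, which were sorted from mouse bone marrow (strain C57/BL6 per the labels) 4 months after a bone marrow transplant. Every array was made from several animals combined, 3 arrays from controls and 3 from animals expressing NPMc+, the cytoplasmic mutant of nucleophosmin. Both groups shared the transplant and the sort, and about 5 ng of total RNA was amplified for each array. The labels do not name the allele, vector or promoter that expressed the mutant, the cells it was expressed in, the surface gate or the age of the animals. A pool hides the spread between its animals, and in such bulk samples fewer cells of a type and less RNA per cell cannot be told apart. The series title names stem cell dormancy as the subject, and the comparison asks how the replication genes differ between NPMc+ and control cells.

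Before S phase the origin recognition complex, Cdc6 and Cdt1 load the MCM helicase onto origins, a step called licensing. The kinases Cdc7-Dbf4 and CDK then recruit Cdc45 and the GINS complex to the loaded helicase, and polymerases follow. E2F transcription factors, released when cyclin-CDK complexes phosphorylate the retinoblastoma protein, drive the transcription of many of these genes as cells leave G1. LT-HSC are known for spending most of their time in G0, where much of this programme is low. The level of the module on these arrays is given below.

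Promoter letters, which the list did not use, were counted next. RefSeq promoter windows (GRCm38.p6, 250 bases before to 50 bases after a start) were at hand for 31 of the 38 genes. The E2F letters TTTGGCGC, TTTCCCGC, TTTCGCGC or TTTGCCGC, searched on both strands, occurred in 13 of the 31 genes (41.9%) and in 2.6% of the 27025 genes with a window. Matches to different spellings can overlap, as they do in Mcm5 and Mcm6. The CCAAT box (CCAAT, both strands) occurred in 19 of the 31 genes (61.3%), against 41.1% of all genes, and the CHR element (TTTGAA, both strands) in 5 (16.1%), against 20.2%. A match is a run of letters, not a measured binding site. Other spellings were not searched, so a gene without a match is not shown to lack an E2F site.

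Stretches upstream of the start are shown for 5 genes that hold E2F letters and belong to the helicase, its loader or the primase-polymerase, and for 2 genes without those letters that had the 2 smallest p-values in the module. The Chaf1a stretch holds gttcccgc, which differs from the searched TTTCCCGC in its first letter only and was not counted as a match. Capitals mark E2F letters in the first 5 and a CCAAT box in Chaf1a; each sequence is read on the gene's own strand. They lie at chr11:98907987-98908046 (Cdc6, plus strand), chr8:75109330-75109393 (Mcm5, plus), chr1:128359719-128359841 (Mcm6, minus), chr5:138172015-138172074 (Mcm7, minus), chrX:93632260-93632319 (Pola1, minus), chr7:38107491-38107640 (Ccne1, minus) and chr17:56040266-56040415 (Chaf1a, plus).
Cdc6: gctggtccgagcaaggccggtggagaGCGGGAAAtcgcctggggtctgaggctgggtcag
Mcm5: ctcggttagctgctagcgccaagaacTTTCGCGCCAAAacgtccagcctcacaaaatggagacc
Mcm6: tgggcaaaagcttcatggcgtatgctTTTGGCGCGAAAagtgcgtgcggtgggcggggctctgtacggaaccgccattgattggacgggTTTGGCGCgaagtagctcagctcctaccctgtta
Mcm7: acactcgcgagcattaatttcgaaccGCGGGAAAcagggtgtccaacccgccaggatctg
Pola1: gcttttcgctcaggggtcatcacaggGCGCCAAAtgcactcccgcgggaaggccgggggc
Ccne1: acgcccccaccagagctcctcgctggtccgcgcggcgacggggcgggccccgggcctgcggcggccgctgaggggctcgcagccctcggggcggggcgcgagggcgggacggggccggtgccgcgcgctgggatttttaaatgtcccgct
Chaf1a: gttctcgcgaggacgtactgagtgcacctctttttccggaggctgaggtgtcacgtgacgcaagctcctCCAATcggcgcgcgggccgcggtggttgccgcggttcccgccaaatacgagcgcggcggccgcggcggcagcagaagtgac

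The deposited values are log2 expression, and their form sets how they can be read. For every probe set, the mean of the control and the NPMc+ array of a replicate number is the same in replicates 1, 2 and 3 to within 6.5e-05 log2 units. An effect of the replicate number had thus been taken out before deposit, and a control array mirrors its same-numbered NPMc+ array about 1 common mean. Values of single arrays are given below, but the information lies in the 3 differences, NPMc+ minus control, called pairs 1, 2 and 3. In values of this form the groups fail to overlap exactly when all 3 differences have 1 sign. With 3 pairs, an exact sign-flip test of a single gene cannot go below a two-sided p of 0.25, so genes were tested with limma across all 16635 genes tested.

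Markers of the sorted population and of other cells were set beside the module. Of 14 LT-HSC markers, 12 had a value, all 12 passed the filter on dim genes, and their median difference was 0.41 log2 units. The mean difference was positive for 10 of the 12, as it was for 54.9% of all genes tested. Procr (0.08) and Tek (0.03), counted as higher, lay near 0, and Fgd5 (-0.20) and Mllt3 (-0.21) were lower. Fgd5, Tek and Esam were dim, at group means of 3.85 to 4.30 log2 units, near the array medians of 3.90 to 3.99. The mean level of these 12 was 5.38 to 5.55 log2 units on control arrays and 5.75 to 5.91 on NPMc+ arrays. Over all genes tested the mean level was 5.41 to 5.45 and 5.46 to 5.5. Among markers of mature or committed cells with a value, many were lower in NPMc+, where 45.1% of all genes tested were. These were 11 of 13 for neutrophils and monocytes and 7 of 7 for erythroid cells. For B cells they were 7 of 7 and for T and NK cells 4 of 7. Ly6c2 (-0.07 log2 units) and Pax5 (-0.03), counted as lower, lay near 0. The exceptions were Mpo (0.17) and Elane (0.325) of the neutrophil and monocyte list. In the T and NK cell list they were Nkg7 (0.48), Gzmb (0.84) and Klrb1c (0.30), each higher in all 3 pairs. The mean level of the neutrophil and monocyte markers was 10.2 to 10.7 log2 units on control arrays and 9.5 to 10.1 on NPMc+ arrays, with pair medians of -1.43, -0.91 and -0.04. The mean of the erythroid markers was 6.46 to 6.86 and 5.75 to 6.15, that of the B cell markers 6.01 to 6.11 and 4.67 to 4.78, and that of the T and NK cell markers 5.89 to 6.29 and 5.22 to 5.62. Arrays give no zero, so none of these markers can be called absent. Xist, transcribed from the inactive X chromosome of female cells, differed by -5.44, -5.39 and 0.48 log2 units in pairs 1, 2 and 3. The part of any of these in the values below was not tested.

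The mean differences of the replication genes between NPMc+ and control LT-HSC lay on both sides of 0. The mean level of the 36 genes was 7.28 to 7.5 log2 units on control arrays and 7.36 to 7.58 on NPMc+ arrays. Over all genes tested the mean level was lower, at 5.41 to 5.45 and 5.46 to 5.5. How many of the sorted cells were in G0 was not tested. The median difference over the 36 genes was -0.02 log2 units, against 0.03 over all genes tested, and single genes ran from -0.58 (Ccne1) to 0.52 (Chaf1b). The mean difference was positive for 16 genes (44.4%, against 54.9% of all genes tested) and negative for 20 (55.6%, against 45.1%). None passed an adjusted p of 0.05 in limma, and neither did any other gene on the array (0% of 16635). At an unadjusted p under 0.05 there were 2 higher members, Pole and Chaf1a (5.56%, where 5.95% of all genes tested were higher at that threshold), and 1 lower, Ccne1 (2.78%, against 3.02%). The members' shares were thus close to those of the whole array. The next genes by p were Chaf1b at 0.108 and Dbf4 at 0.109. The 95% intervals of the other 33 genes all included 0. The median SE over all genes was 0.202 log2 units, so small differences were not detectable with 3 pairs. Some intervals were wide, as for Gins2 (-1.11 to 0.71) and Uhrf1 (-0.54 to 1.22), so equal expression is not shown.

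**Figure D1:**
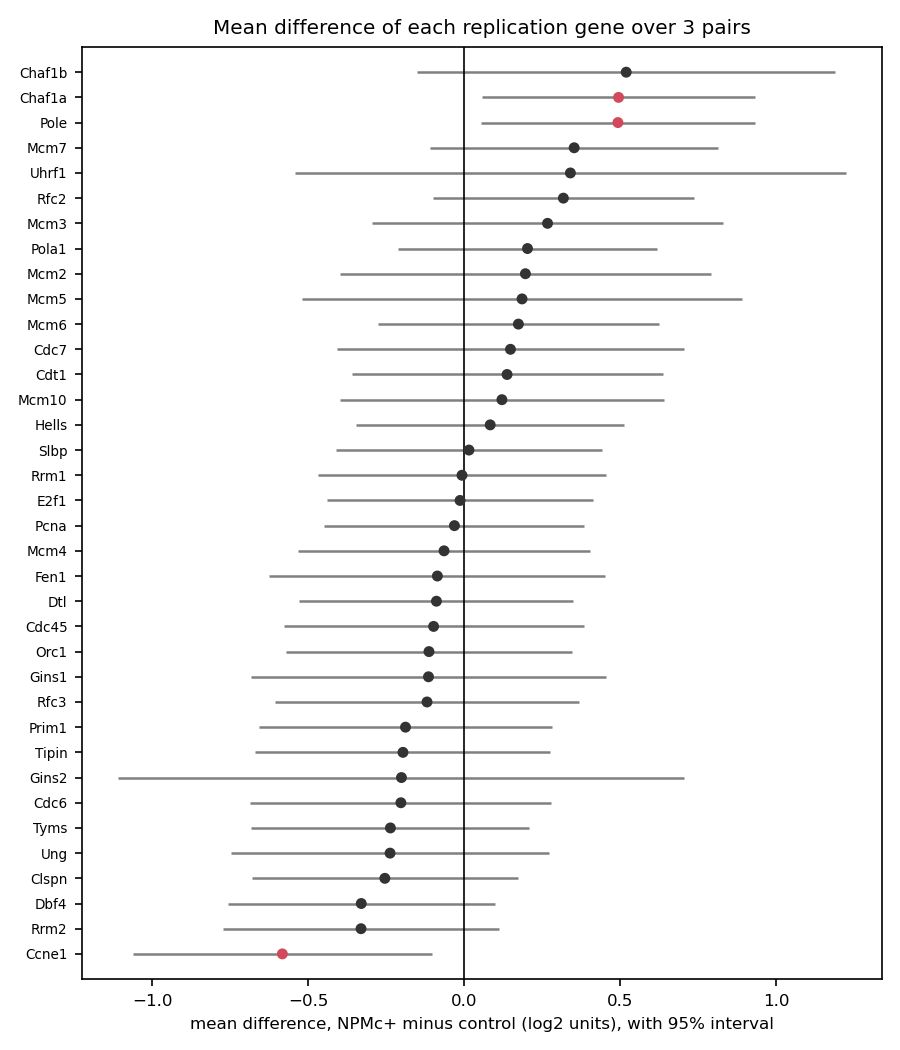
Mean difference, NPMc+ minus control, of each of the 36 replication genes over 3 pairs in log2 units, with the 95% interval of the limma fit as a bar. Red points are Pole, Chaf1a and Ccne1, whose unadjusted p was under 0.05, and the intervals of all other genes cross 0.

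The 3 pairs did not show the same picture. In pair 2, 29 of the 36 genes (80.6%) were higher in NPMc+, where 54.5% of all genes tested were. In pair 1, 27 (75%) were lower, against 49.5% of all genes, and in pair 3, 24 (66.7%) were lower, against 46.9%. The members' medians were -0.13, 0.17 and -0.07 log2 units in pairs 1, 2 and 3, beside 0.003, 0.05 and 0.03 over all genes. Pair 2 gave the largest of the 3 differences for 26 of the 36 genes (72.2%; 37.9% of all genes), and 15 genes (41.7%; 12.2% of all genes) were higher in pair 2 while lower in both others. Each pair holds 1 array a group, so the differences between pairs have no replicate check.

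**Figure D2:**
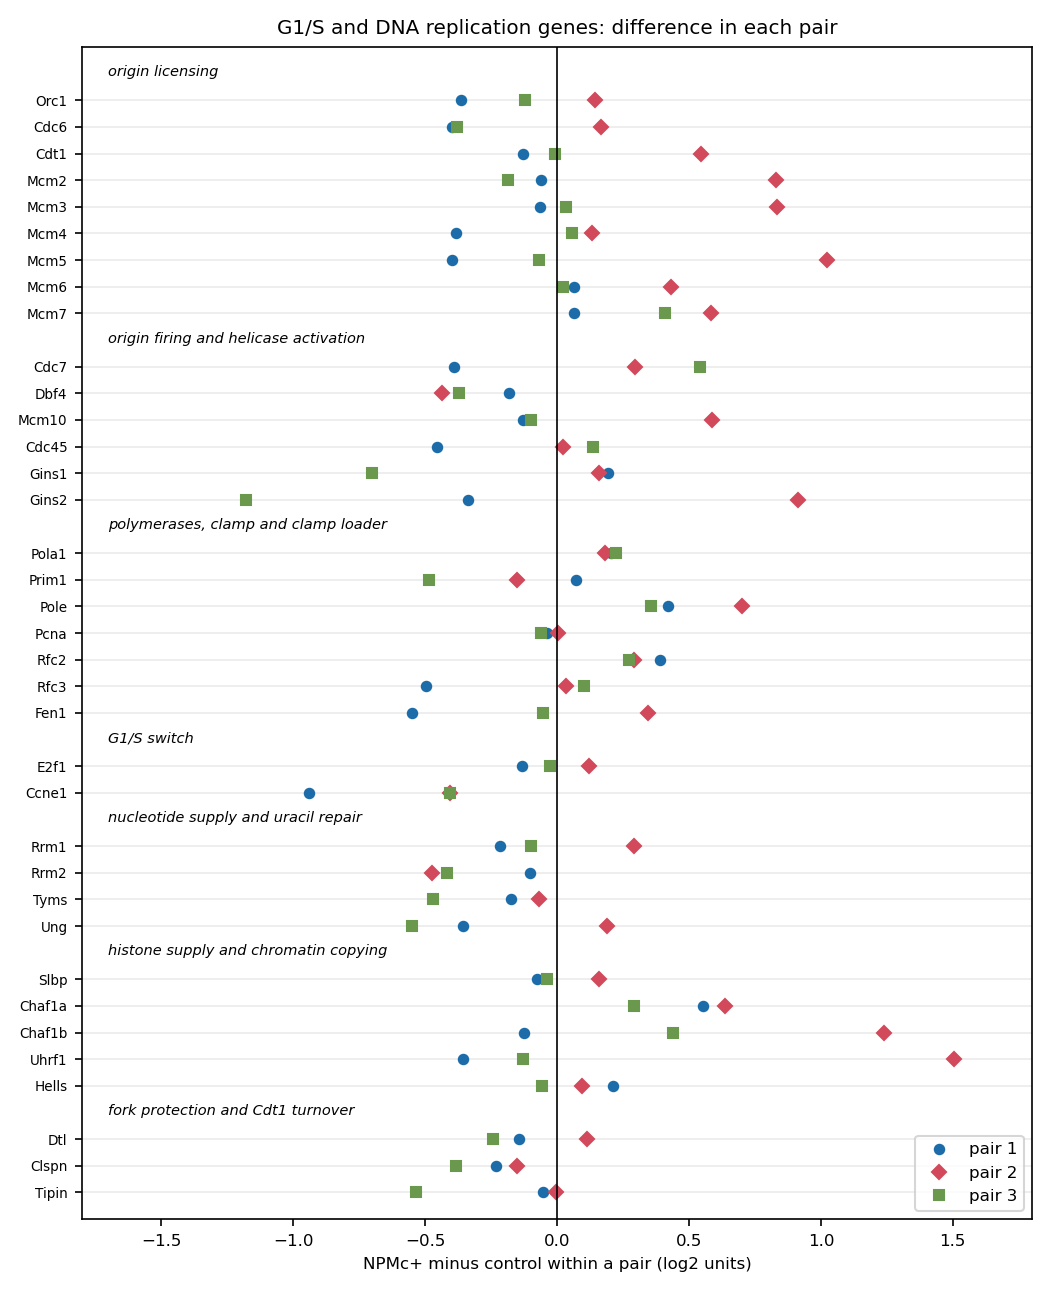
Difference within each pair, NPMc+ minus control in log2 units, for the 36 genes ordered by role; circles are pair 1, diamonds pair 2 and squares pair 3. Pair 2 lies to the right of the other pairs for 26 genes, with its highest values for Uhrf1, Chaf1b and Mcm5. Mcm6, Mcm7, Pola1, Pole, Rfc2 and Chaf1a lie above 0 in all 3 pairs.

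Steps of at least 1.5-fold were few outside pair 2. In pair 2, 9 genes were at least 1.5-fold higher (25%; 16.7% of all genes) and 0 at least 1.5-fold lower (8.6% of all genes). In pair 1, 0 genes were that much higher (6.31% of all genes) and 1, Ccne1, that much lower (5.67%). In pair 3, 0 were that much higher (11.9%) and 2, Gins1 and Gins2, that much lower (8.64%). Taken over all 3 pairs, 6 genes were higher in every pair (16.7%; 17.4% of all genes): Mcm6, Mcm7, Pola1, Pole, Rfc2 and Chaf1a. As many were lower in every pair (16.7%; 12.8% of all genes): Dbf4, Ccne1, Rrm2, Tyms, Clspn and Tipin.

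**Figure D3:**
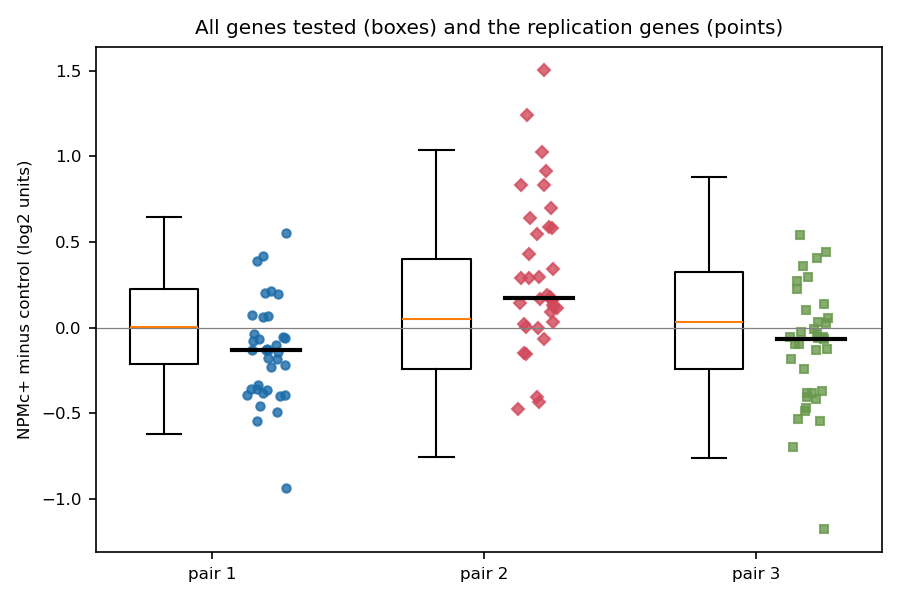
Difference within each pair in log2 units for all 16635 genes tested (boxes: median and quartiles, whiskers from the 5th to the 95th percentile) and for the 36 replication genes (points, with a black line at their median). The members' medians are -0.13, 0.17 and -0.07 in pairs 1, 2 and 3.

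The licensing genes were alike in pair 2. Orc1 is the largest subunit of the origin recognition complex, Cdc6 and Cdt1 are the loading factors, and Mcm2 to Mcm7 are the helicase subunits. All 9 were higher in pair 2, where 54.5% of all genes tested were. For all 9 pair 2 gave the largest difference, as it did for 37.9% of all genes. In pair 1, 7 of the 9 were lower (49.5% of all genes), and in pair 3, 5 were (46.9% of all genes). The share in pair 3 was near that of the whole array. The median over the 6 helicase subunits was -0.06 log2 units in pair 1, 0.71 in pair 2 and 0.03 in pair 3. Their mean level on the control arrays was 8.38, 8.0 and 8.30 log2 units in replicates 1, 2 and 3, and on the NPMc+ arrays 8.25, 8.64 and 8.34. The groups overlapped.

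Mcm5 had the widest spread among the helicase subunits. It measured 8.27, 7.56 and 8.10 log2 units on the control arrays and 7.87, 8.58 and 8.03 on the NPMc+ arrays. The groups overlapped, with pair differences of -0.40, 1.02 and -0.07. The mean difference was 0.18 ± 0.29 (SE; limma unadjusted p = 0.551). Mcm2 and Mcm3 were 1.78-fold higher in pair 2 each and within 1.14-fold in the other pairs, and without pair 2 the mean differences of Mcm2, Mcm3 and Mcm5 were -0.12, -0.02 and -0.23. Mcm4 differed by -0.38, 0.13 and 0.06.

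Mcm6 and Mcm7 were the helicase genes higher in all 3 pairs. Mcm7 measured 7.76, 7.50 and 7.58 log2 units on the control arrays and 7.82, 8.08 and 7.99 on the NPMc+ arrays. The groups did not overlap, though pair 1 differed by only 0.07. The mean difference of 0.35 ± 0.19 (SE) was 1.28-fold, the largest of the licensing genes (limma unadjusted p = 0.113, adjusted p = 0.654). Mcm6 measured 9.51, 9.33 and 9.53 in control and 9.58, 9.76 and 9.56 in NPMc+. Its groups lay close together without overlap, at a mean difference of 0.17 ± 0.19.

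The loading factors lay near or below 0 outside pair 2. Cdc6 differed by -0.40, 0.17 and -0.38 log2 units, Orc1 by -0.36, 0.15 and -0.12, and Cdt1 by -0.13, 0.54 and -0.01. Their mean differences were -0.20 ± 0.20, -0.11 ± 0.19 and 0.14 ± 0.21 (SE), none with an unadjusted p under 0.05 in limma.

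The firing factors were split between directions. Dbf4, the activating subunit of the Cdc7 kinase, measured 7.90, 8.03 and 7.99 log2 units on the control arrays and 7.72, 7.59 and 7.62 on the NPMc+ arrays. Every NPMc+ array was below every control array. The mean difference was -0.33 ± 0.18 (SE), or 1.26-fold lower, the largest of this group (limma unadjusted p = 0.109, adjusted p = 0.649). Its unadjusted p was 0.0486 in the ordinary paired test without the prior, and its adjusted p in that test 0.808. Its partner Cdc7 did not follow, with pair differences of -0.39, 0.29 and 0.54.

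Gins2, a subunit of the GINS complex that joins the helicase, had the most divergent pairs of the module. It measured 7.92, 7.29 and 8.34 log2 units in control and 7.58, 8.21 and 7.16 in NPMc+. The values crossed over between pairs, from 1.88-fold higher in pair 2 to 2.27-fold lower in pair 3. The mean difference was -0.20 ± 0.38. It was 0.29 without pair 3 and -0.76 without pair 2, the latter with a limma unadjusted p of 0.0356. Gins1 differed by 0.19, 0.16 and -0.70. Mcm10, which helps to activate the loaded helicase, differed by -0.13, 0.59 and -0.10, and Cdc45, part of the active helicase, by -0.46, 0.02 and 0.14.

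Among polymerase and clamp genes, Pole, the catalytic subunit of the leading strand polymerase epsilon, was higher in NPMc+. It measured 6.57, 6.43 and 6.60 log2 units on the control arrays and 6.99, 7.13 and 6.96 on the NPMc+ arrays. The groups were separate, with pair differences of 0.42, 0.70 and 0.36. The mean difference was 0.49 ± 0.18 (SE; 95% interval 0.05 to 0.93), or 1.41-fold (limma unadjusted p = 0.0332, adjusted p = 0.514). A dimmer probe set of Pole differed by 1.29, 0.80 and 0.31 in the 3 pairs, also higher in each. With an intensity trend in the prior the unadjusted p of Pole was 0.0522, after quantile normalization 0.0586, and without pair 1, 2 or 3 it was 0.0909, 0.124 or 0.0599.

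Pola1 and Rfc2 showed the same direction with little spread. Pola1, the catalytic subunit of the polymerase that works with primase, measured 7.82, 7.83 and 7.81 log2 units in control and 8.02, 8.01 and 8.03 in NPMc+. Its pairs were nearly identical, at 0.20, 0.18 and 0.22, and the mean was 0.20 ± 0.17 (SE), the SE being widened by the prior drawn from all genes. Rfc2, a subunit of the clamp loader, measured 7.03, 7.08 and 7.09 in control and 7.42, 7.37 and 7.36 in NPMc+. The groups did not overlap, and the mean difference was 0.32 ± 0.17 (limma unadjusted p = 0.115). The ordinary paired test without the prior, which has 2 degrees of freedom, gave unadjusted p-values of 0.00368 for Pola1 and 0.0129 for Rfc2. Adjusted over all genes tested, the p-values of that test were 0.732 and 0.794.

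The other genes of this group did not share that direction. Pcna, the sliding clamp, differed by -0.04, 0.004 and -0.06 log2 units (mean -0.03 ± 0.17, SE; 95% interval -0.45 to 0.39). Prim1, the catalytic subunit of primase, differed by 0.07, -0.15 and -0.49. Rfc3, another subunit of the clamp loader, differed by -0.50, 0.03 and 0.10. Fen1, the flap endonuclease of Okazaki fragment processing, differed by -0.55, 0.34 and -0.05, and a dimmer probe set of it by -0.98, 0.88 and -0.32.

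Ccne1, encoding cyclin E1, the partner of Cdk2 at the G1/S switch, had the lowest mean difference of the module. It measured 6.52, 6.25 and 6.26 log2 units on the control arrays and 5.58, 5.85 and 5.85 on the NPMc+ arrays. All NPMc+ arrays were below all control arrays, farthest in pair 1. The pair differences were -0.94, -0.40 and -0.41 and the mean -0.58 ± 0.20 (SE; 95% interval -1.06 to -0.11), or 1.5-fold lower (limma unadjusted p = 0.0239, adjusted p = 0.485). Its unadjusted p was 0.157 without pair 1, and 0.0817 in the ordinary paired test without the prior. E2f1, a factor that drives this programme, differed by -0.13, 0.12 and -0.03 (mean -0.01 ± 0.18).

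**Figure D4:**
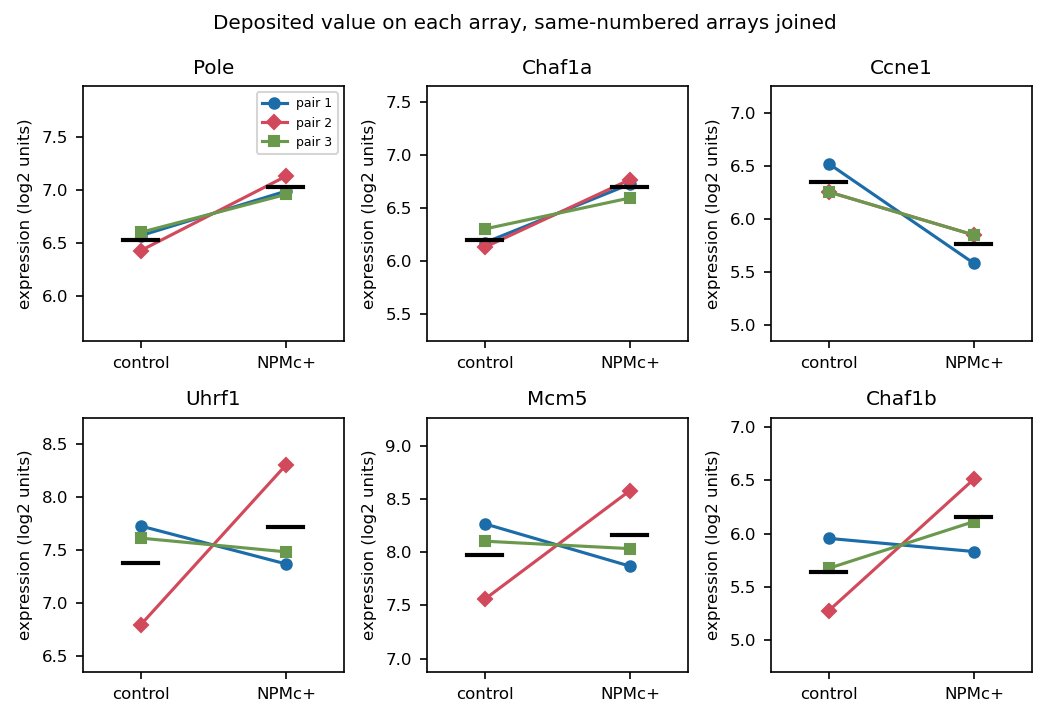
Deposited log2 expression on each array for Pole, Chaf1a, Ccne1, Uhrf1, Mcm5 and Chaf1b, with the arrays of a pair joined by a line and each group's mean as a black bar; all panels span the same range of log2 units. Pole and Chaf1a are higher and Ccne1 is lower in NPMc+ in all 3 pairs, while Uhrf1 and Mcm5 are higher in pair 2 alone.

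Nucleotide and uracil repair genes all had negative means, as 45.1% of all genes tested did. The mean of Rrm1 was near 0, at -0.008 ± 0.19 log2 units (SE). Rrm2, the regulated subunit of ribonucleotide reductase, measured 9.92, 10.10 and 10.07 log2 units in control and 9.81, 9.63 and 9.66 in NPMc+. The groups did not overlap, and the mean difference was -0.33 ± 0.18 (SE; limma unadjusted p = 0.119). A dimmer probe set of Rrm2 differed by -0.43, 0.32 and -0.61, so that the probe sets disagreed in pair 2. Tyms, thymidylate synthase, measured 6.82, 6.77 and 6.97 in control and 6.64, 6.70 and 6.5 in NPMc+. Its groups were separate by a narrow margin, and the mean was -0.24 ± 0.19. Rrm1, the other subunit of the reductase, differed by -0.22, 0.29 and -0.10, and Ung, a uracil-DNA glycosylase, by -0.36, 0.19 and -0.55.

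Among the genes of chromatin copying all 5 means were positive, as those of 54.9% of all genes tested were. The mean of Slbp was near 0, at 0.01 ± 0.18 log2 units (SE). Chaf1a and Chaf1b encode subunits of CAF-1, which places histones on newly made DNA. Chaf1a measured 6.17, 6.13 and 6.30 log2 units on the control arrays and 6.73, 6.77 and 6.60 on the NPMc+ arrays. The groups did not overlap, and the pairs differed by 0.55, 0.64 and 0.29. The mean was 0.49 ± 0.18 (SE; 95% interval 0.06 to 0.93), or 1.41-fold higher (limma unadjusted p = 0.0325, adjusted p = 0.514). Its unadjusted p was 0.0551 with an intensity trend, 0.0673 after quantile normalization, and 0.126 and 0.108 without pair 1 and pair 2.

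Chaf1b had the highest mean of the module but rested on pair 2. It measured 5.96, 5.27 and 5.67 log2 units in control and 5.83, 6.51 and 6.11 in NPMc+. The groups overlapped, pair 1 being slightly negative, at -0.12, and pair 2 2.36-fold higher. The mean was 0.52 ± 0.28 (SE; limma unadjusted p = 0.108), and 0.16 without pair 2. Without pair 1 it was 0.84, with an unadjusted p of 0.0341.

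Uhrf1, which reads hemimethylated DNA behind the fork and recruits the maintenance methyltransferase, had the widest range of differences within the chromatin group. It measured 7.72, 6.79 and 7.61 log2 units in control and 7.37, 8.30 and 7.48 in NPMc+. In pair 2 it was 2.84-fold higher, and in pairs 1 and 3 it was 1.28-fold and 1.09-fold lower. The mean was 0.34 ± 0.37 (SE), turning to -0.24 without pair 2. Hells, a chromatin remodeller that acts in DNA methylation, differed by 0.21, 0.09 and -0.06, and Slbp, the protein that binds the stem-loop of histone mRNA, by -0.08, 0.16 and -0.04.

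The 3 fork genes had small negative means, where 45.1% of all genes tested had a negative mean. Clspn, the mediator of the replication checkpoint, measured 6.28, 6.24 and 6.35 log2 units in control and 6.04, 6.08 and 5.97 in NPMc+. Its groups did not overlap, and the mean difference was -0.26 ± 0.18 (SE; limma unadjusted p = 0.197). Tipin, a subunit of the fork protection complex, measured 8.74, 8.71 and 8.98 in control and 8.69, 8.71 and 8.45 in NPMc+. The separation was minimal in pair 2, at -0.004, and most of the mean of -0.20 ± 0.20 lay in pair 3. Dtl, the adaptor of the ubiquitin ligase that removes Cdt1 in S phase, differed by -0.14, 0.12 and -0.24.

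Genes with and without E2F letters were set side by side by pair, with no test of the difference. The 13 genes with a match and a value had medians of -0.14, 0.18 and -0.06 log2 units in pairs 1, 2 and 3, and 4, 12 and 5 of them were higher in NPMc+. The 17 genes with a window but no match had medians of -0.13, 0.16 and -0.10, and 2, 12 and 4 were higher. Of all genes tested, 50.4%, 54.5% and 53% were higher in pairs 1, 2 and 3. Mcm4, Gins1, Gins2, Pole, Rfc2 and Tipin had a value but are not in the promoter table.

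A further 81 genes of replication and G1/S control, not among the members, were followed for comparison, and 78 had a value. An unadjusted p under 0.05 was reached by 6 of the 78 in the higher direction (7.69%, against 5.95% of all genes tested) and by 1 in the lower (1.28%, against 3.02%), shares near those of the whole array, and 0 passed the adjusted threshold in limma. Their median was 0.04 log2 units, with pair medians of -0.04, 0.13 and 0.03. The 7 genes are given as values. Ccnd1, encoding cyclin D1, was 1.92-fold higher (0.94 ± 0.32 log2 units, SE; pairs 0.13, 1.81 and 0.89). E2f3, an activating E2F factor, was 1.75-fold higher (pairs 0.28, 0.99 and 1.16) and Cdk6, a partner of the D cyclins, 1.53-fold (pairs 0.59, 0.26 and 0.98).

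Cdkn1a and Cdkn2c were the CDK inhibitors of the list with an unadjusted p under 0.05 in limma. Cdkn1a, which encodes the CDK inhibitor p21, measured 8.51, 8.41 and 8.40 log2 units in control and 9.04, 9.13 and 9.15 in NPMc+. The groups were well apart, at a mean difference of 0.67 ± 0.18 (SE; limma unadjusted p = 0.00803, adjusted p = 0.410). Cdkn2c, which encodes an inhibitor of Cdk4 and Cdk6, was 1.66-fold higher, with 1.56 log2 units in pair 2 against 0.40 and 0.25. Cdkn1b differed by a mean of -0.04 ± 0.19 and Cdkn1c by -0.33 ± 0.21 (limma unadjusted p = 0.848 and 0.152), so no direction was shown for them. Cdkn1c was dim, at 3.8 to 4.4 log2 units over the arrays, and its pair 1 differed by 0.06. Rfc5, a subunit of the same clamp loader as Rfc2, was 1.54-fold higher (pairs 0.28, 0.50 and 1.1). The 1 lower gene was E2f6, a repressing E2F factor, at 1.45-fold (pairs -0.68, -0.34 and -0.59).

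Genes that act directly with cyclin E1 and in S phase gave mixed values. Cdk2 differed by 0.60, 0.15 and -0.90 log2 units in the 3 pairs (mean -0.05 ± 0.30, SE), and Ccna2, encoding cyclin A2, by -0.34, -0.13 and 0.20 (mean -0.09 ± 0.19). In pair 2, 22 of the 78 genes (28.2%; 16.7% of all genes) were at least 1.5-fold higher, among them Timeless, the partner of Tipin, at 1.27 log2 units. In pair 3, 14 were (17.9%; 11.9% of all genes).

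The genes of G2/M and mitosis had a similar order of pairs. Of 29 with a value, 0 had an unadjusted p under 0.05 in limma, where 5.95% of all genes tested were higher and 3.02% lower. The median difference was -0.01 log2 units. The pair medians were -0.14, 0.23 and -0.11, and 10 of the 29 (34.5%; 12.2% of all genes) were higher in pair 2 alone. Mki67, a marker of cycling cells, went the other way in pair 2: it measured 10.06, 10.08 and 10.12 in control and 9.86, 9.83 and 9.79 in NPMc+. Its groups did not overlap, with a mean difference of -0.26 ± 0.17 (SE; limma unadjusted p = 0.184). Npm1, the gene of nucleophosmin, differed by -0.03, -0.30 and -0.24, and the labels do not say whether its probe set reads the mutant.

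**Figure D5:**
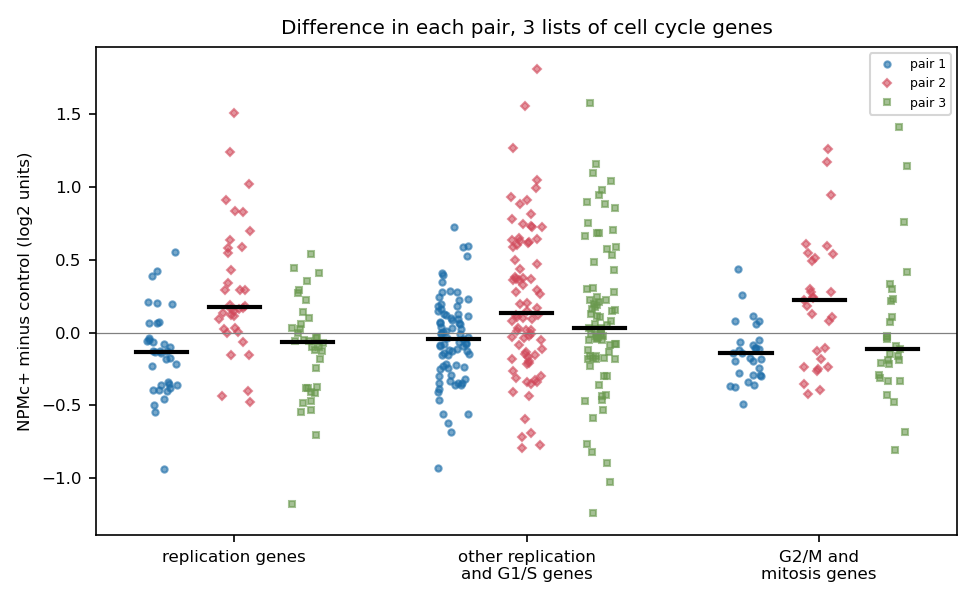
Difference within each pair, NPMc+ minus control in log2 units, for the 36 replication genes, 78 other replication and G1/S genes and 29 G2/M and mitosis genes; points are genes and black lines medians. Pair 2 has the highest median in each list, at 0.17, 0.13 and 0.23.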

How the data were processed

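The authors deposited log2 expression values of 41345 probe sets on 6 arrays, made with RMA per the submitters' processing notes; version and later steps are not stated there. The medians of the arrays were 3.90 to 3.99, and the number of arrays limits the precision. Same-numbered arrays were treated as pairs because their deviations from the group means correlated at -1 in each of 3 pairs. The members, gene lists and the blocked fit were chosen with earlier results of these data known. Of the probe sets, 23521 had 1 gene symbol, 1814 several and 16010 none. Each gene took its single-symbol probe set with the highest mean, and those whose mean fell under the 25th percentile (3.01 log2 units) were not tested. Differences were tested with limma 3.58.1 in R 4.3.3 (lmFit and eBayes, two-sided, replicate number as a block, 2 residual and 4.537 prior degrees of freedom), with Benjamini-Hochberg adjustment over 16635 genes. The fit was tested on simulated data. The design text calls the 3 pools of a group biological replicates. Array values are given for members with p under 0.05, 1 sign in all pairs or the largest mean of their role. Mcm5, Gins2, Uhrf1, Timeless, Cdkn1b and Cdkn1c, and the genes whose promoters are printed, were chosen after their values were seen. So were the cell type markers named singly. Other genes named outside the module have p under 0.05 or were fixed by name. The R package data.table (version 1.17.8) read the files, and matplotlib 3.10.9 in Python 3.11.15 drew the figures.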

Additional observations from a re-analysis of the deposited data

How the results depend on the processing

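Without the replicate block, which counts degrees of freedom that these values do not hold, an unadjusted p under 0.05 was reached by 5 members in the higher and 5 in the lower direction, 2 members (Pole and Chaf1a, adjusted p 0.0387 and 0.0379 in limma) and 828 of all genes passed the adjusted threshold, and 11 of the other replication genes were higher and 7 lower. After quantile normalization 0 members were higher and 2 of the other replication genes lower, and with an intensity trend 0 members were higher. The ordinary paired test gave 4 higher members, and 1 higher and 2 lower among the other genes. Leaving out 1 pair in turn gave 0 to 1 higher and 0 to 2 lower members, 3 to 8 higher and 0 to 1 lower among the other genes, and 0 to 24 of all genes past the adjusted threshold in limma. The share of all genes at an unadjusted p under 0.05 was counted in the main fit alone, at 5.95% higher and 3.02% lower. In the other settings the counts have no such share beside them and are not read as a result about the module. A change of sign near 0 was seen for Pcna (0.00044) and Slbp (-0.026) after quantile normalization and for E2f1 (0.0044) and Rrm1 (0.011) with array medians subtracted. Leaving out pairs turned the sign of 17 members, whose ranges in log2 units were -0.243 to 0.0113 for Orc1, -0.0672 to 0.269 for Cdt1, -0.122 to 0.385 for Mcm2, -0.0166 to 0.433 for Mcm3, -0.164 to 0.0938 for Mcm4, -0.234 to 0.476 for Mcm5, -0.0488 to 0.417 for Cdc7, -0.114 to 0.245 for Mcm10, -0.217 to 0.0800 for Cdc45, -0.270 to 0.177 for Gins1, -0.759 to 0.287 for Gins2, -0.231 to 0.0683 for Rfc3, -0.302 to 0.144 for Fen1, -0.0807 to 0.0455 for E2f1, -0.157 to 0.0968 for Rrm1, -0.0579 to 0.0602 for Slbp and -0.243 to 0.688 for Uhrf1. Fits that left out a pair rested on fewer pairs, and the cause of these changes of sign was not tested. The filter on dim genes and the choice of probe sets changed no sign and moved no member across an unadjusted p of 0.05.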
